A study of Mus musculus with 3 samples.

Results

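Binding regions of the transcription factor Twist1 that were found in E10.5 limb buds as well as in cells of a peripheral nerve sheath tumor (PNST), but not in E12.5 endocardial cushion cells (ECCs), were examined. A limb bud peak counted as shared if a PNST peak covered 5% or more of its bases and no ECC peak covered as much as 5%. Of 48965 limb bud peaks, 612 met this rule, and they overlapped 607 different PNST peaks of 7538. The members were therefore chosen on measured values, the positions of the called peaks in all 3 lists, and neither their number nor their overlap was tested.

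Chromatin immunoprecipitation followed by sequencing (ChIP-seq) was performed with an anti-Twist1 antibody in 3 samples of the mouse strain FVB/N. They were atrioventricular canal endocardial cushions of E12.5 embryos, forelimb buds of E10.5 embryos, and a mouse PNST cell line grown in culture. Each embryonic sample was a pool of wild-type embryos, PNST cells came from pooled culture plates, and there was 1 sample per tissue. No spread between replicates can be given, and every difference between samples compares these libraries and not the tissues. After duplicate tags were removed, 14893391 tags remained for limb buds, 11823220 for PNST cells and 3149934 for ECCs.

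Twist1 is a basic helix-loop-helix protein that binds DNA as a dimer, with itself or with the ubiquitous E proteins, at E-boxes of the form CANNTG. In the early limb bud it is needed for outgrowth and patterning of the mesenchyme, in endocardial cushions it is present in proliferating and migrating valve precursors, and in several tumors it is linked with loss of epithelial adhesion and with invasion. Peripheral nerve sheath tumors arise from the Schwann cell lineage.

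The sequences of 10 shared regions with an E-box are shown first, as examples of the sequence content described below. They were taken from the regions named below, lie on the plus strand of mm9, and are written 5′ to 3′ with each E-box (CANNTG, which reads the same on both strands up to its 2 central bases) in capitals. The sequence is that of the reference assembly and not of the FVB/N samples.
Sox6 intron, chr7:122814051-122814193: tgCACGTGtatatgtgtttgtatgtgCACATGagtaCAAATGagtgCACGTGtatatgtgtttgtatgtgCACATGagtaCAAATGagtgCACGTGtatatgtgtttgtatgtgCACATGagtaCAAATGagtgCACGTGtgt
Spon1 intron, chr7:121058809-121058947: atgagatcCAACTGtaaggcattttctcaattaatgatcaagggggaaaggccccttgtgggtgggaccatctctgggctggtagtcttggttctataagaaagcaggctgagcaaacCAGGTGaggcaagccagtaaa
Mycbp2 intron, chr14:103645294-103645440: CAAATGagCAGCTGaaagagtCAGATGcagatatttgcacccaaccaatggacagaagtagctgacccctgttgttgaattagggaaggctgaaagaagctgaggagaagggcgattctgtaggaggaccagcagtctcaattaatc
Cdh5 upstream, chr8:106621628-106621871: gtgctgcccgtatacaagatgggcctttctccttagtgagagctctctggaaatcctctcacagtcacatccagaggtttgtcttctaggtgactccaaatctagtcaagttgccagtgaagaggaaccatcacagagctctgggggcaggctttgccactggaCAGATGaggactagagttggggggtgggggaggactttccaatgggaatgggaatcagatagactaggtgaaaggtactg
Eln region, chr5:135170065-135170268: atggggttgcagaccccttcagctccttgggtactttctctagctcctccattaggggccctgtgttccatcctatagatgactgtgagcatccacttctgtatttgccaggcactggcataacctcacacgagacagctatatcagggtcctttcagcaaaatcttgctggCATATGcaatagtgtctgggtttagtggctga
Shroom4 region, chrX:6258832-6258973: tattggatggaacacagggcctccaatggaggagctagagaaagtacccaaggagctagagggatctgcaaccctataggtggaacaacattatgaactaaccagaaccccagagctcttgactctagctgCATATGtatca
Fshr intron, chr17:89391984-89392213: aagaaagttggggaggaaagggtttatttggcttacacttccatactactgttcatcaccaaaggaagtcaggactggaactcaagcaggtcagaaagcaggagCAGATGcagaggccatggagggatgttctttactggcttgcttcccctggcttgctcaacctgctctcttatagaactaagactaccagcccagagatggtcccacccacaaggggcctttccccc
D15Ertd621e region, chr15:58306617-58306776: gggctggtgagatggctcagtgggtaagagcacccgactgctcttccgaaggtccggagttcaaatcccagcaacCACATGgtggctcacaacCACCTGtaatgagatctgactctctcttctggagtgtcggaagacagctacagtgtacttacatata
Mettl14 intron, chr3:123088544-123088672: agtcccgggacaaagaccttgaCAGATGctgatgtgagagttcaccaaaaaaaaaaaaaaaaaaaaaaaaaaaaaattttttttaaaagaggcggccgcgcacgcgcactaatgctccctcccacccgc
Akap9 intron, chr5:4053172-4053361: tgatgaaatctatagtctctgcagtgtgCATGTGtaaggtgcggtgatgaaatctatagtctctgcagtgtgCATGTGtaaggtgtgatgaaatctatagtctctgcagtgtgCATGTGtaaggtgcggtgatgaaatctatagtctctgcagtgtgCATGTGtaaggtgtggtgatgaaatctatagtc

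The regions differed in build. The region in intron 5 of Sox6, which encodes a transcription factor of cartilage formation, had 10 E-boxes in 143 bp, all in a unit that recurs along the peak. The region in Akap9 had 4 E-boxes in 190 bp, again in a recurring unit. The regions near Eln and Shroom4 both contained the first of the shared stretches described next, and the region in Fshr contained the second. The Mettl14 region contained a run of A, and 82.7% of its 32-base stretches (32-mers) occurred only once in the assembly.

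The sequence of a shared peak was mostly repeated elsewhere in the genome. Each 32-mer of the 573 shared peaks on assembled chromosomes was counted in the whole assembly, on both strands. In 43 of the 573 peaks, or 7.5% (95% Wilson interval 5.62 to 9.96), more than 50% of the 32-mers occurred once, and these are called mostly single-copy. Among all limb bud peaks on assembled chromosomes the share was 1.35%. A window of the same length placed 1 Kb to the lower side of each shared peak was mostly single-copy in 75.6% of cases (71.9 to 78.9), and on the higher side in 77.1% (73.5 to 80.4). Intervals cover counting error only, and regions of 1 sample are not replicates.

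Among the shared peaks, 110 (19.2%) had a median of over 1 to 10 copies per 32-mer, 127 (22.2%) over 10 to 100, 143 (25%) over 100 to 1000, and 150 (26.2%) over 1000 copies. The median of these medians was 110 copies in shared peaks and 454 in all limb bud peaks. Of the 573 peaks, 416 had at least 1 32-mer, outside simple tandem repeats, in common with another shared peak. The 32-mers carried by most shared peaks, each chosen to add the most peaks to the ones before, were the following, all without an E-box.
Shared stretch 1: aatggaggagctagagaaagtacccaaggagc
Shared stretch 2: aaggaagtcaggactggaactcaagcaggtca
Shared stretch 3: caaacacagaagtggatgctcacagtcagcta
Shared stretch 4: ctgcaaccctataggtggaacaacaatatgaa

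The first stretch occurred 23396 times in the assembly and in 39 of 573 shared peaks (6.81%), on 15 chromosomes. Across all limb bud peaks it was carried by 4.25%, or 2026 of 47664. The second occurred 6599 times and was carried by 22 shared peaks (3.84%) and by 1.77% of all limb bud peaks. The third, with 30676 copies, was carried by 25 shared peaks (4.36%) against 4.37% of all limb bud peaks, and the fourth, with 16812 copies, by 17 (2.97%) against 2.36%. Together the 4 stretches reached 91 shared peaks, or 15.9%. Their tags were low, with a median of 10 limb bud and 8 PNST tags for peaks with the first stretch, and of 14 and 8 for the second. The share of tags in such a peak that came from that copy cannot be read from the deposited lists.

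Perfect tandem repeats of a unit of 1 to 6 bases and at least 20 bp long were present in 89 shared peaks, or 15.5% (12.8 to 18.7). Limb bud peaks found in all 3 samples had them in 41.6% (37.5 to 45.8), those shared with ECCs only in 13.6% (12.4 to 14.9), and those of limb buds only in 5.47% (5.26 to 5.69). In 52 shared peaks (9.08%) the longest repeat was a run of A or T, compared with 1.35% of all limb bud peaks. The 6-base unit AACCCT, the repeat of mouse telomeres, was the longest repeat in 0 of 573 shared peaks, which allows a share of up to 0.524% (3 of 573), and in 145 of the 541 peaks found in all 3 samples (26.8%).

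**Figure D1:**
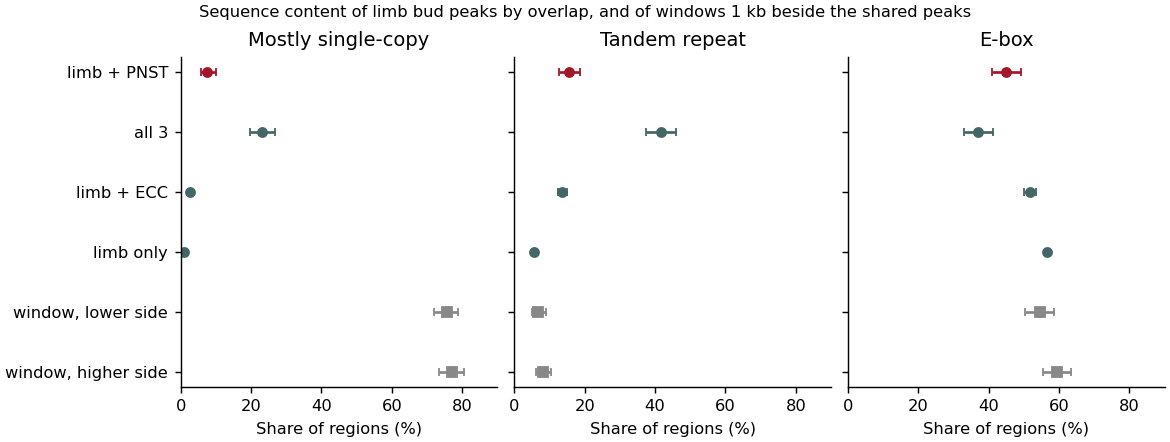
Share of regions (%, with 95% Wilson intervals as bars) that were mostly single-copy, held a tandem repeat of at least 20 bp, or held an E-box, for limb bud peaks on assembled chromosomes by overlap class (circles; the shared limb bud and PNST peaks in red, n = 573) and for windows 1 Kb to each side of the shared peaks (grey squares). Single-copy content was 7.5% in the shared peaks and 75.6% and 77.1% in the windows.

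An E-box was present in 258 of the 573 shared peaks, or 45% (41.0 to 49.1). Across all limb bud peaks on assembled chromosomes the share was 56.0%, and in windows of equal length beside the shared peaks it was 54.5% (50.4 to 58.5) on the lower and 59.3% (55.3 to 63.3) on the higher side. The share depended on which shared peaks were taken. Among the 73 on assembled chromosomes whose tags scale to 5 or more in ECCs, as explained below, it was 68.5% (57.1 to 78), and among the 45 with a p-value of 1e-10 or smaller in both samples it was 28.9% (17.7 to 43.4). These shares were not adjusted for peak length, and a longer peak has more room for an E-box. Per Kb of sequence there were 4.82 E-boxes in shared peaks and 5.61 in all limb bud peaks. Within 50 bp of the summit, 169 shared peaks (29.5%) had an E-box, compared with 39.9% of all limb bud peaks. Counted by sequence on both strands, CACCTG or CAGGTG was present in 9.08% of shared peaks (6.99 to 11.7) and in 16% of all limb bud peaks. CATATG, preferred by Twist1 dimers in some settings, was present in 9.60% (7.45 to 12.3) against 9.48%. CAGATG or CATCTG was present in 11.3% (9 to 14.2) against 12.9%, and CACGTG in 1.22% against 1.21%. Pairs of E-boxes spaced by 5 bp, an arrangement described for Twist1 with an E protein, were found in 2 shared peaks (0.349%) and in 0.581% of all limb bud peaks. A match to these letters is a description of sequence and not evidence of binding.

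The GC content of the shared peaks was 48.9% at the median (quartiles 45.1 and 51.6), that of all limb bud peaks 50.2%, and that of the windows 41.9% and 41.3%. The 43 mostly single-copy peaks stood apart from the others in this respect, with a median GC content of 42.1%. A tandem repeat was present in 27 of the 43 (62.8%, 47.9 to 75.6) and in 62 of the 530 mostly repeated ones (11.7%, 9.23 to 14.7). An E-box was present in 16 (37.2%, 24.4 to 52.1) and 242 (45.7%, 41.5 to 49.9), respectively. A single shared peak had no repeated 32-mer at all. It lay in an intron of Coro1c, which encodes an actin-binding coronin, with 9 limb bud and 8 PNST tags at chr5:114323310-114323383, and was singled out after its values were seen. This peak was 74 bp long and held a run of C or G of 28 bp.

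Most shared peaks rested on few tags. In limb buds the median was 12 tags (quartiles 9 and 18, range 8 to 462), and 117 of 612 were at 8 tags, the fewest in any limb bud peak. The overlapping PNST peaks had a median of 8 tags (quartiles 7 and 11, range 7 to 813), and 200 were at 7, the fewest in that list. The median over all limb bud peaks was 10 tags, and over those found in all 3 samples it was 32, with 20 in PNST cells. Fold enrichment over the local background, as given by the peak caller, had a median of 15.7 in limb buds and 15.2 in PNST cells. It was 14.4 over all limb bud peaks and 31.3 for those found in all 3 samples. A p-value of 1e-10 or smaller in limb buds was reached by 28.9% of shared peaks (25.5 to 32.6), by 82.7% of those in all 3 samples (79.7 to 85.4), and by 6.51% of those in limb buds only.

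The absence of an ECC peak has to be read against depth. The ECC library held 21.1% as many tags as that of limb buds, and the smallest ECC peak had 5 tags. Scaled by depth, a limb bud peak needs 23.6 tags to reach 5 in ECCs, and 518 of the 612 shared peaks (84.6%) had fewer. For those 518, scaling gives fewer tags than the smallest ECC peak had, so absence from the ECC list does not show a difference between samples. The 23.6 tags are not a detection limit, because most limb bud peaks also called in ECCs had fewer. The 3060 limb bud peaks shared with ECCs only had a median of 12 limb bud tags (upper quartile 18). The 94 other peaks shared with PNST cells included 57 within 50 Kb of a gene and 8 that were mostly single-copy, and 43 of the 94 had an ECC peak within 1 Kb. Among all 612, an ECC peak lay within 1 Kb of 77 (12.6%) and within 10 Kb of 131. None of the 612 overlapped an ECC peak by even 1 base, and the smallest gap was 27 bp.

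**Figure D2:**
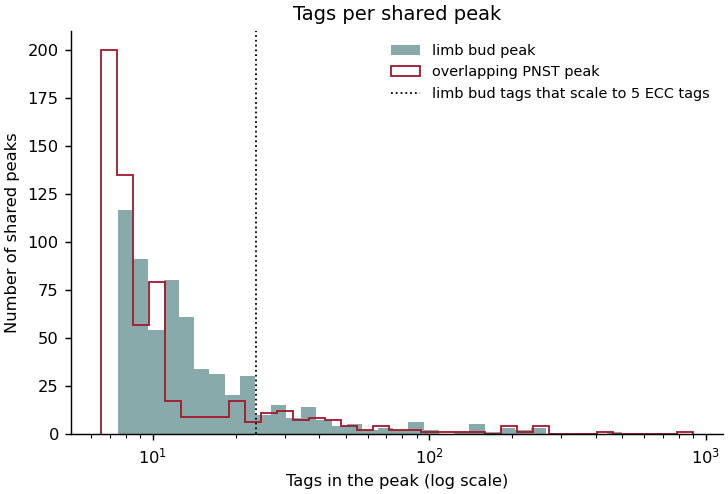
Number of shared peaks (vertical axis) by tags in the limb bud peak (filled) and in the overlapping PNST peak (red outline), on a log axis. The dotted line marks the 23.6 limb bud tags that scale to 5 ECC tags, and 518 of the 612 limb bud peaks lie to its left.

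The regions just inside the PNST threshold were chr1:24651994-24652132 near Lmbrd1, with 5.04% of the limb bud peak overlapped and 10 and 11 tags, chr6:86813576-86813715 near Aak1, with 5.71% and 8 tags in each, and chr6:47603369-47604707 near Rn4.5s, with 5.83% and 245 and 96 tags. Just outside it were chr16:53111312-53111522, with 4.27%, chrX:45322586-45322725, with 3.57%, and chr16:71829120-71829256, with 2.92%. Their limb bud tags were 16, 8 and 8, and their PNST tags 9, 7 and 7. The regions just outside the ECC threshold had 13.5%, 14.5% and 16.8% of their length overlapped by an ECC peak, with 20, 58 and 9 limb bud tags and 8, 34 and 8 PNST tags. No limb bud peak that met the PNST threshold had an ECC overlap above 0% and under 5%.

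Tags were scaled to 1000000 filtered tags of each library (scaled tags), and the median ratio of limb bud to PNST scaled tags was close to 1. The log2 ratio of limb bud to PNST scaled tags was 0.03 at the median (quartiles −0.33 and 0.44), and −0.10 when all mapped tags were used for scaling. Counted per 100 bp of each peak, the median was 0.01. With filtered tags 329 peaks were higher in limb buds and 283 in PNST cells. Because the call threshold lies at 0.537 scaled tags in limb buds and 0.592 in PNST cells, and 152 peaks (24.8%) had at most 9 and 8 tags, this median is set in part by the 2 thresholds. Counts are of whole peaks, at coordinates given for the limb bud peak unless a PNST peak is named. For each peak an exact binomial interval of the ratio was computed from its tags and the library totals, with no adjustment for unequal peak lengths. The interval held 1 for 544 of the 612 peaks, lay above 1 for 41 and below 1 for 27. At least a 2-fold higher value in limb buds was seen for 51 peaks, or 8.33% (6.39 to 10.8), compared with 14.6% of all 1278 limb bud peaks overlapped by a PNST peak. A value at least 2-fold higher in PNST cells was seen for 23, or 3.76% (2.52 to 5.58), against 3.76% of the 1278.

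**Figure D3:**
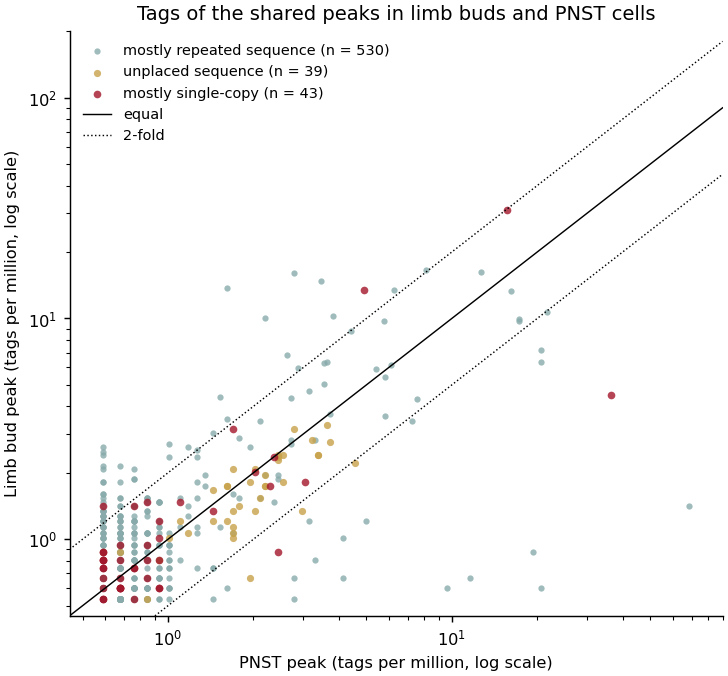
Tags per 1000000 filtered tags in each shared limb bud peak (vertical, log scale) against its overlapping PNST peak (horizontal, log scale), for 530 mostly repeated, 39 unplaced and 43 mostly single-copy regions. The solid line marks equal values and the dotted lines a 2-fold difference, which 51 peaks reached toward limb buds and 23 toward PNST cells.

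Summits of the overlapping peaks were often close, but the pairs had been chosen because they overlap. Most peaks were short (median length 152 bp for limb bud peaks, 151 bp for PNST peaks), so the rule itself keeps summits near. The distance between the limb bud and PNST summit had a median of 25 bp (quartiles 7 and 82), and was at most 50 bp in 392 of 612 pairs, or 64.1% (60.2 to 67.8). With 50% of both peaks required to overlap, it was 81.1% (77.2 to 84.5). The closeness that overlap alone would give was not computed, and the classes below were not matched for length or overlap. For peaks found in all 3 samples the median was 6 bp, with 82.9% (79.8 to 85.6) at most 50 bp apart. Within the shared peaks, the 43 mostly single-copy ones had a median distance of 4 bp and 90.7% (78.4 to 96.3) within 50 bp, and the 530 mostly repeated ones a median of 32 bp and 60.0% (55.8 to 64.1). The common sequence had a median of 114 bases, and a median of 74.0% of the limb bud peak was covered. In 106 cases it was covered whole, and in 131 by less than 50%.

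**Figure D4:**
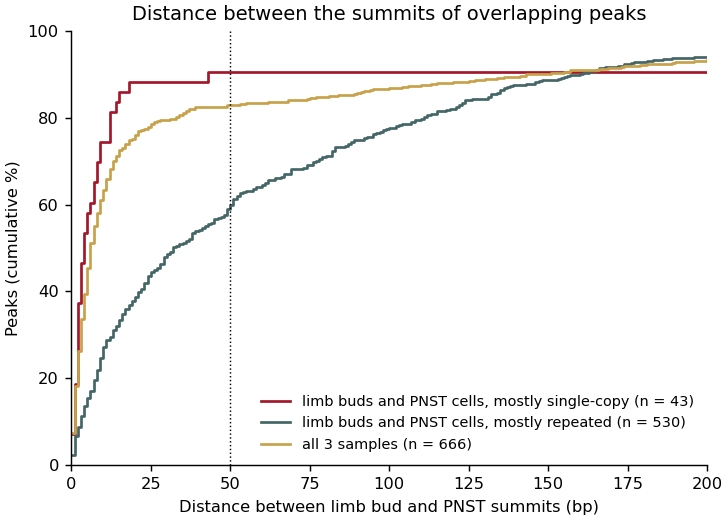
Cumulative share of peaks (%) by the distance in bp between limb bud and PNST summits, for mostly single-copy (n = 43) and mostly repeated (n = 530) shared peaks and for peaks of all 3 samples (n = 666). At 50 bp (dotted line) the shares were 90.7%, 60.0% and 82.9%.

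Like shared peaks as a whole, those with most tags lay mostly in repeated sequence. Of the 18 shared peaks with over 100 limb bud tags, 2 were mostly single-copy, 16 lay within 50 Kb of a gene and 10 had an ECC peak within 1 Kb. Over all shared peaks these shares were 7.5% (of the 573 on assembled chromosomes), 57.5% and 12.6%. The fold enrichment of the 18 ran from 3.05 to 8.20, below the median of all shared peaks. The highest count, 462 limb bud and 185 PNST tags, was at chr11:3094498-3097165, between Sfi1, which encodes a centrosomal protein, and Eif4enif1, which encodes a carrier of a translation initiation factor. It was mostly single-copy, with 89.2% of its 32-mers found once. In scaled tags it was 1.98-fold higher in limb buds (1.67 to 2.36). Next came 2 peaks beside Rn4.5s, a gene of a small non-coding RNA present in many copies, with 245 and 243 limb bud tags and 96 and 150 PNST tags. Rn4.5s had 7 shared peaks between chr6:47603369 and 47727343, with 89 to 245 limb bud tags and 31 to 245 PNST tags, and the median copies per 32-mer of each peak were 17 or 18.

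Mid1, which encodes a microtubule-associated ubiquitin ligase and spans the pseudoautosomal boundary of the mouse X chromosome, had 3 shared peaks between chrX:166439805 and 166445440. Limb bud tags were 238, 150 and 221, PNST tags 33, 26 and 41, and the ratios of scaled tags 5.73 (3.97 to 8.51), 4.58 (3.01 to 7.24) and 4.28 (3.06 to 6.13). All 3 ratios of whole peaks thus lay above 1, but each limb bud peak was longer than its PNST peak. The limb bud peaks had 616, 358 and 597 bp, of which 235, 143 and 370 bp were shared. The ratios were not adjusted for length. The 32-mers of these limb bud peaks had medians of 3 to 5 copies in the assembly, and gaps to the nearest ECC peak were 745, 797 and 253 bp.

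Regions with the opposite difference included sequence that also occurs in the mitochondrial genome. The largest PNST count was 813 tags, in a PNST peak of 4676 bp at chr1:24618347-24623022. The limb bud peak inside it, chr1:24621013-24621279, was 267 bp long and had 21 tags. It lay in a UTR exon of the gene model Gm10925 and 26824 bp from Col19a1, a collagen gene. The ratio of the whole peaks was 0.0205 (0.0126 to 0.0316), not adjusted for this unequal length, and the summits were 1624 bp apart. All 32-mers of the limb bud peak (100%) were found in the mitochondrial sequence of the assembly. In an intron of Myo3a, which encodes a myosin of hair cells, 3 shared peaks at chr2:22443065-22444948 had 9, 27 and 10 limb bud tags and 114, 36 and 137 PNST tags, and 77.4%, 43.3% and 65.1% of their 32-mers matched mitochondrial sequence. These 4 were the shared peaks with any such match, compared with 6 of 541 peaks found in all 3 samples, 0 of 2993 shared with ECCs only (up to 0.1%) and 0 of 43557 of limb buds only (up to 0.00689%). The part of mitochondrial DNA in these counts was not tested.

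Other regions with more PNST tags were in introns of Vps45, a sorting protein gene, with 9 and 244 tags at chr3:95848668-95848828 and a ratio of 0.0293 (0.0132 to 0.0565), and of Akap9, a scaffold protein gene, with 13 and 228 tags at chr5:4053172-4053361 and a ratio of 0.0453 (0.0237 to 0.0790). Between Ly6c1 and Ly6c2, genes of surface antigens of blood cells, neighbouring peaks differed in direction. The region chr15:74915917-74916342 had 201 limb bud and 58 PNST tags (ratio 2.75), and the region beside it, chr15:74916384-74916635, had 67 and 432 (ratio 0.123, 0.0937 to 0.160). Their summits were 254 and 772 bp apart from those of the overlapping PNST peaks. Counts of whole peaks depend on where the caller ended each peak, and tags outside the common sequence are included.

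The remaining high values near genes, apart from Mid1, were in an intron of Secisbp2l, with 39 and 7 tags and a ratio of 4.42 (1.96 to 11.7) at chr2:125592043-125592540, and 27492 bp from Id4, with 36 and 7 tags and a ratio of 4.08 (1.79 to 10.9) at chr13:48329304-48329681. Id4 encodes an inhibitor of DNA binding that sequesters E proteins. The PNST peaks covered 141 of 498 bp in Secisbp2l and 137 of 378 bp near Id4, and the ratios were not adjusted for length. Neither region was mostly single-copy, with a median of 5 copies for Secisbp2l and 156 for Id4.

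The highest fold enrichments near genes came with close summits in both samples. A peak in an intron of Sec23b, which encodes a coat protein of vesicles leaving the endoplasmic reticulum, reached 52.2-fold in limb buds and 30.3-fold in PNST cells, with 23 and 13 tags at chr2:144408382-144408528. The peak between BC048403 and Srgap1 (the latter acts in the Slit-Robo pathway) reached 49.7-fold and 30.3-fold, with 22 and 10 tags at chr10:121200281-121200391. Those near D15Ertd621e, Iqcj-schip1 and 4933402J07Rik reached 47.4-, 47.0- and 42.6-fold in limb buds and 15.2-, 24.3- and 27.3-fold in PNST cells. In all 5 the summits of both samples were 1 or 2 bp apart, the ratio interval held 1 in 4 and lay above 1 for D15Ertd621e (2.72, 1.14 to 7.48), and no ECC peak lay within 10 Kb. The regions of Srgap1 and Iqcj-schip1 were mostly single-copy, but held a run of C or G of 42 bp and a tandem repeat of AG or CT of 54 bp, respectively.

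Shared peaks were spread over 20 assembled chromosomes. Per limb bud peak the share ran from 0.778% on chromosome 14 (18 of 2313) to 1.78% on chromosome 19 (17 of 956). On chromosome Y it was 0 of 69, which allows up to 4.35%, and on the unplaced sequence of that chromosome 0 of 837, which allows a share of up to 0.358%. On other sequence without a chromosome it was 39 of 270, or 14.4%. These 39 peaks had 8 to 49 limb bud tags (median 26) and 7 to 54 PNST tags (median 23), 9 were higher in limb buds by scaled tags, and none had a gene within 50 Kb. Taking peaks within 10 Kb as 1 locus, the 612 peaks formed 571 loci, of which 547 held 1 peak, 14 held 2 and 10 held 3 or more. Of the last, 7 were on unplaced sequence and 3 were those of Myo3a, Rn4.5s with Pdia4, and Mid1.

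By summit position in protein-coding transcripts of the annotation, 365 of 573 shared peaks (63.7%, 59.7 to 67.5) were intergenic and 198 (34.6%, 30.8 to 38.5) intronic. The corresponding shares of all limb bud peaks were 70.8% and 27.9%. A promoter, taken as 1 Kb upstream of a start site, held 4, coding exons 3 and UTR exons 3.

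Within 50 Kb of a gene, as deposited with the lists, lay 352 of the 612 shared peaks, or 57.5% (53.6 to 61.4), compared with 53.0% of all limb bud peaks. On assembled chromosomes the 352 were 61.4% of shared peaks. The deposited distances were found to run mostly from the start of a peak to the start of an annotated gene feature, such as an exon. On the lower side 92.7% ended at such a position and 1.93% at a transcription start, and on the higher side 69.5% and 25.6%. Measured from summits to start sites of protein-coding transcripts instead, 284 of 573 shared peaks lay within 50 Kb, or 49.6% (45.5 to 53.6), compared with 45.3% of all limb bud peaks. Of the 352, 128 were within 5 Kb and 44 within 1 Kb of a deposited gene position.

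The 352 peaks named 376 genes, which is 2.94% of the 12792 genes with any limb bud peak within 50 Kb. The peaks with the smallest distances were in a coding exon of Calcoco2, an autophagy receptor gene (17 and 7 tags, 13 bp), in a UTR exon of Tigd3, a transposase-derived gene (12 and 9 tags, 101 bp), at Rpl41, a ribosomal protein gene (11 and 17 tags, 104 bp), in an intron of Mettl14, part of the RNA adenosine methyltransferase (13 and 7 tags, 136 bp), and in an intron of 2210018M11Rik (10 and 8 tags, 159 bp). The last 2 were mostly single-copy, at 82.7% and 95% of 32-mers, but held a run of A or T of 30 bp and a run of C or G of 23 bp, respectively. Of the 376 genes, 20 had 2 or more shared peaks. Beside those described, these included Gm17019 with 6, Speer8-ps1 with 5, Speer4d with 4 and Speer7-ps1 with 3, all between chr5:14963184 and 15186852, 4930467E23Rik with 3, and Snord116l1, a small nucleolar RNA gene, with 2. Speer4d peaks had 95 to 148 limb bud and 43 to 205 PNST tags.

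Genes of 11 lists of pathways were then looked up. They held 669 different genes, of which 502 had a limb bud peak within 50 Kb and 24 had a shared one, or 4.78% against the 2.94% of all genes. The lists were chosen with earlier results of these data known, and the difference between the 2 shares was not tested. These 24 genes stood beside 26 shared peaks, with 8 to 36 limb bud tags. The ratio interval held 1 for 22 of the 26, and 2 of the 26 were mostly single-copy, those of Mapk14 and Srgap1. The Mapk14 region held a run of A or T of 37 bp and the Srgap1 region a run of C or G of 42 bp. The intervals were wide, and 18 of the 26 regions had a median of over 10 copies per 32-mer.

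**Figure D5:**
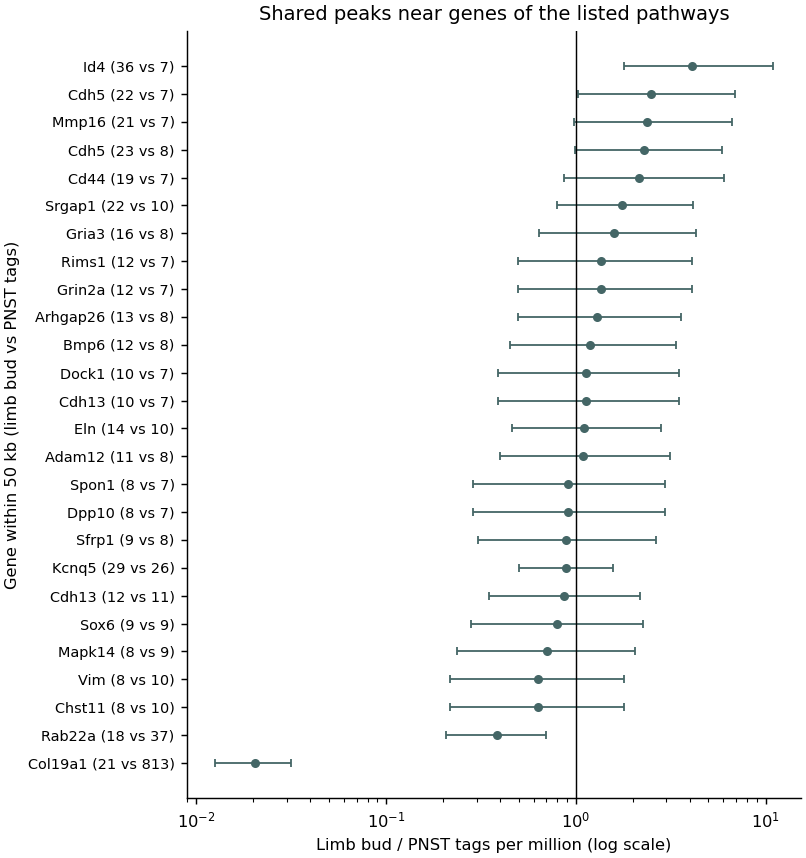
Ratio of limb bud to PNST tags per 1000000 filtered tags (horizontal, log scale) for the 26 shared peaks within 50 Kb of a listed gene, with exact 95% intervals from the tags as bars and the tags of each sample in the labels. Intervals of 22 peaks hold 1 (vertical line), those of Id4 and of 1 Cdh5 peak lie above it, and those of Rab22a and Col19a1 below. Ratios are of whole peaks and are not adjusted for unequal peak lengths.

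No gene of the limb bud patterning list was near a shared peak. Of 35 such genes with a limb bud peak, 0 had a shared one, which allows a share of up to 8.57%, above the background of 2.94%. The same held for 0 of 35 axon and cell guidance genes. Of 27 chondrogenic and skeletal genes, 2 had a shared peak. The Sox6 peak, shown above, had 9 tags in each sample at chr7:122814051-122814193. The peak in intron 1 of Chst11, which encodes a chondroitin sulfotransferase, had 8 limb bud and 10 PNST tags at chr10:82537207-82537344.

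Of 91 adhesion genes, 3 had shared peaks (3.30%). The peak at chr2:102743593-102743810, 2092 bp from a gene feature of Cd44, the receptor for hyaluronan, had 19 limb bud and 7 PNST tags, a ratio of 2.15 (0.867 to 6.07). The endothelial cadherin gene Cdh5 had 2 peaks outside the gene, at chr8:106595556-106595837 with 22 and 7 tags (ratio 2.49, 1.03 to 6.91) and at chr8:106621628-106621871 with 23 and 8 tags (2.28, 0.986 to 5.90). The PNST peaks covered 114 of 282 bp and 155 of 244 bp, and the ratios were not adjusted for length. Cdh13, a cadherin anchored by a lipid, had 2 in introns 4 and 11, with 10 and 7 tags at chr8:121346938-121347110 and 12 and 11 tags at chr8:121827460-121827664. Of 49 extracellular matrix genes, 4 had shared peaks (8.16%). Apart from the Col19a1 region described above, these were Eln, the elastin gene, with 14 and 10 tags, the metalloproteinase gene Mmp16 with 21 and 7 tags in intron 6 at chr4:18016291-18016557, and Spon1, which encodes F-spondin, with 8 and 7 tags. The Eln peak was nearer to another gene, Limk1, at 5802 bp, than to Eln, at 8401 bp.

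Genes of intracellular signaling and vesicle transport were among those listed. A peak near Rab22a, a GTPase of endosomes, had 18 limb bud and 37 PNST tags at chr2:173533055-173533287 with an interval under 1 (ratio 0.386, 0.207 to 0.696). Mapk14, which encodes a p38 kinase, had 8 and 9 tags in intron 8, Arhgap26 13 and 8 in intron 6, and Dock1, an activator of Rac, 10 and 7 in intron 29. Srgap1 was given above.

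Among ligands and inhibitors, Bmp6 of the TGF-beta and BMP list had 12 and 8 tags in intron 2, with summits 1 bp apart, and Id4 was the other of 38 genes. Of 60 Wnt genes, 1 had a shared peak, Sfrp1, a secreted antagonist, with 9 and 8 tags. An ECC peak lay 94 bp from the Sfrp1 peak, whose limb bud tags scale to fewer than the 5 of the smallest ECC peak. Of 39 Schwann cell and nerve tumor genes, 1 had one, Adam12, a metalloproteinase, with 11 and 8 tags in intron 11. Of 27 genes for Twist1, its partners and factors of epithelial to mesenchymal transition, 2 had one, Id4 and Vim, which encodes the intermediate filament vimentin, with 8 and 10 tags 11398 bp away. Of 68 genes of neuronal excitability and synapses, 5 had one (7.35%). These were the potassium channel gene Kcnq5 with 29 and 26 tags, the glutamate receptor genes Gria3 with 16 and 8 and Grin2a with 12 and 7, Rims1 with 12 and 7, and Dpp10 with 8 and 7.

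Lists of the study itself, which were chosen on these samples and are no independent evidence, gave shared peaks near 4 of 15 cell adhesion genes of PNST cells (Adam12, Cask, Cd44 and Spon1) and near 6 of 90 cell migration genes of limb buds (App, Cdh13, Mycbp2, Podxl, Sulf1 and Tek). Of these, the region near Sulf1, which encodes a sulfatase of heparan sulfate, had 40 limb bud and 12 PNST tags at chr1:12647485-12647941, with 10 E-boxes and a ratio of 2.65 (1.36 to 5.54). The PNST peak covered 194 of its 457 bp, and the ratio was not adjusted for length. The region near Podxl, which encodes an anti-adhesive surface sialomucin, had 15 and 11 tags at chr6:31546155-31546313, with summits 3 bp apart, and was mostly single-copy. The Mycbp2 peak, shown above with 3 E-boxes, had 9 tags in each sample and coincident summits. The peak in Tek, which encodes an angiopoietin receptor, had 12 and 7 tags. Near 6 of the 24 genes with primers for ChIP-qPCR and a limb bud peak there was a shared one: Cask, Cd44, Chst11, Mid1, Sfrp1 and Shroom4. The Cask peak had 11 and 9 tags and the Shroom4 peak 8 and 9. These are peaks near the gene and need not be the stretch that the primers amplify. By the paper's qPCR, the regions tested for Cask and Cd44 were bound in PNST cells only, and that for Shroom4 in ECCs only. Binding at a further Cd44 site, shared by all 3 tissues in its peak lists, was not detected. The Chst11 region was bound in all 3 tissues, the Mid1 region in ECCs and limb buds, and the Sfrp1 region in ECCs. Both ontology lists were singled out after their values were seen. In the 7 other lists with 42 or more genes near a limb bud peak the share ran from 0% (0 of 84 neurogenesis genes of limb buds) to 5.56% (6 of 108 cell adhesion genes of ECCs), around the 2.94% of all genes. The 3 smaller lists of PNST cells had 2 of 8, 0 of 4 and 1 of 3 genes.

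Beside the 43 mostly single-copy shared peaks lay 35 genes. In these peaks limb bud tags ran from 8 to 462 with a median of 12, and PNST tags from 7 to 432 with a median of 9. The median log2 ratio was −0.01, and the ratio interval held 1 for 38 of the 43. Their median fold enrichment in limb buds was 23.5, compared with 15.7 in the 530 others, and 29 of the 43 were within 50 Kb of a gene.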

How the data were processed

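The authors sequenced Twist1 ChIP DNA of 1 pooled sample per tissue as single reads of 50 bp, mapped them to mm9 (Eland v2 and Bowtie) and called peaks with MACS 1.4.2, keeping p-values up to 1e-05. The deposited lists give a count of tags per peak, not normalized for depth and with duplicates removed per the file headers. The deposited p-value is 10 times its −log10, and the deposited fold enrichment is the ratio of tags to the local background. Peak length, summit and distances to the nearest gene on each side are deposited in bp. The headers name no control file, whereas the methods name FVB/N genomic DNA. All 3 deposited lists are longer than in the study's text, that of limb buds several times, and the headers give more mapped tags for each sample than the reads stated there. Counts and depth scaling here hold for the lists as deposited. Distances to transcription start sites are described by the methods, but most deposited distances did not end at one.

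Overlaps, ratios and summits were computed from the lists in Python 3.11.15 (pandas 2.3.3, scipy 1.17.1), and sequence features from the NCBIM37 assembly with GENCODE vM1 (pysam 0.24.0, numba 0.67.0). Copies of 32-mers were counted on both strands of the assembly. Peaks on unplaced sequence, 39 of the 612, had no sequence analysed. Shares carry 95% Wilson intervals, and ratios exact (Clopper-Pearson) intervals of the tags of both peaks. With 1 sample per tissue no test was run. The overlap code was checked on 1000 simulated peaks, with 0 mismatches.

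The members, gene lists and regions to name were chosen with earlier results of these data known. Named regions, all on assembled chromosomes, were the 5 with most limb bud tags and, within 50 Kb of a gene, the 5 with most tags in each sample, highest limb bud fold enrichment, smallest distance, or highest or lowest ratio, those near listed genes, genes with 2 or more shared peaks, and those next to the overlap thresholds. Sequences were chosen among these with an E-box and at most 300 bp. The count of 1 of the lists is not reported here. Alternatives changed 1 choice at a time, except that GENCODE start sites also brought in summits, another annotation and assembled chromosomes only.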

Additional observations from a re-analysis of the deposited data

How the results depend on the processing

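The 10 summary values were recomputed in 109 alternatives, 20 of them added after seeing the data. In 62 the value stayed within its interval, or within 1.5 times for a count, and in 47 it moved. A p-value of 1e-10 or smaller in limb buds and PNST cells left 52 shared peaks and 38 genes, with 63.5% within 50 Kb, 23 limb bud and 18.5 PNST tags, a log2 ratio of −0.07, 76.9% close summits, 28.9% with an E-box, 45.1% GC and 26.7% single-copy. A fold enrichment of at least 20 left 80 peaks and 59 genes, with 63.8%, 13 and 10 tags, 0.13, 88.8%, 28.2%, 47.6% and 26.9% in the same order. Only mostly single-copy peaks gave 43 peaks, 35 genes, 67.4% within 50 Kb, 9 PNST tags, 90.7% close summits, 37.2% with an E-box and 42.1% GC. Only peaks whose tags scale to 5 or more in ECCs gave 94 peaks, 43 genes, 39.5 and 29 tags, a log2 ratio of 0.37, 48.9% close summits, 68.5% with an E-box, 46.1% GC and 11% single-copy. An overlap of 50% of both peaks gave 81.1% close summits, and assembled chromosomes only gave 61.4% within 50 Kb. A limit of 10 Kb gave 30.2% of peaks and 187 genes, and GENCODE start sites 49.6% of peaks. All mapped tags gave a log2 ratio of −0.10, a summit limit of 100 bp 79.9%, E-boxes within 50 bp of the summit 29.5%, E-boxes in the common sequence 31.9%, PNST peaks in place of limb bud peaks 47.8% GC, and no repeated 32-mer 0.175%. Stricter settings keep fewer peaks by construction; beyond that the cause was not tested. The log2 ratio changed sign among alternatives. Its interval (−0.01 to 0.05) held 0, but lay below 0 with all mapped tags (−0.14 to −0.08) and above 0 in 5 alternatives, such as assembled chromosomes only (0.03 to 0.11) and peaks scaling to 5 or more ECC tags (0.02 to 0.76). No paired analysis was possible because each tissue had 1 sample. The depth of the ECC list limits the statement that a shared peak was absent there.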
